A study of Mus musculus with 17 samples.

Results

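The 42 genes described here make and use glutathione and thioredoxin, or belong to the program of the transcription factor NRF2 (gene Nfe2l2). They were chosen by name for their function, with earlier results of these data known. All 42 were present among the 55450 genes of the bulk table and the 35849 genes of the single-cell matrices. In bulk, 41 passed the filter of at least 1 TPM (a transcript-level unit scaled for length and library total) in at least 2 libraries, as did 15348 genes in all. The member that did not pass was Gpx2, listed at up to 0.58 TPM in MFP and in BM CD44high cells, up to 0.03 TPM in LN CD44low and BM CD44low cells, and 0 in the other groups.

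The study profiled cancer cell lines grown from tumor-bearing organs of female FVB/NJ MMTV-PyMT mice of 10 to 12 weeks, to compare primary tumor with metastases and CD44low with CD44high cells. In these mice a mammary tumor virus promoter drives the polyoma middle T oncogene in mammary epithelium, so every group carries the transgene. Cultures came from the mammary fat pad (MFP, the primary site), from lymph nodes (LN), from bone marrow (BM) and from lungs, and were enriched for cancer cells for 1 month in vitro. The LN, BM and lung cells were then sorted as EpCAMhigh and either CD44low or CD44high, and MFP carries no CD44 status in the labels and served as 1 group. Each of the 7 bulk groups had 2 libraries, which were clonal isolates from different mice, so each library describes 1 isolate. Single-cell libraries were made from lung CD44high (lungH), lung CD44low (lungL) and LN CD44high (lymphH) cells, 1 library each.

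NRF2 is held in the cytoplasm and degraded through its partner KEAP1 until electrophiles or oxidants modify KEAP1, after which NRF2 enters the nucleus and switches on genes with antioxidant response elements. Its classical targets supply glutathione, reduce thioredoxin, detoxify quinones and heme and regenerate NADPH. Glutathione and thioredoxin then give electrons to the peroxidases and peroxiredoxins that remove peroxides, and transferases join glutathione to electrophiles.

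The lung-derived libraries went against their EpCAMhigh label. Epcam was 0 TPM in both lung CD44low libraries, 0.23 and 0.86 in lung CD44high cells and 315 to 941 in the 10 other libraries, and in single cells it had 0 counts in lungL, 3 in lungH and 936 in lymphH. Of 8 epithelial markers, Epcam, Cdh1, Krt8, Krt19 and Cldn4 were each under 0.1 TPM in both lung CD44low libraries, and the list summed to 1.74 and 2.36 TPM there. It summed to 15.8 and 87.6 TPM in lung CD44high cells and to between 2185 and 7583 TPM in the 10 MFP, LN and BM libraries. All 8 fibroblast markers reached a mean of 1 TPM in lung CD44low cells, and their sum was 4708 and 5117 TPM, against 85.7 and 195 in lung CD44high cells and at most 19.9 elsewhere. The 7 basal markers summed to 694 and 742 TPM in lung CD44low cells, 594 and 656 in MFP and 3.38 to 67.3 elsewhere. In lung CD44low cells 657 and 711 TPM of that was Acta2, which encodes smooth muscle actin and was at most 1.36 TPM elsewhere, and Krt5, Krt14 and Krt17 were under 0.1 TPM. Of 6 macrophage markers, Adgre1 and Itgam were under 0.1 TPM in each group, Ptprc at most 0.20 and Csf1r at most 0.69 in any library. The list summed to 39.1 and 39.2 TPM in lung CD44low cells, 10 and 23.5 in lung CD44high cells and 2.28 to 23.3 elsewhere, and its member Lyz2 was 35.2 and 34.8 TPM in lung CD44low cells, 6.15 and 18.5 in lung CD44high cells and at most 4.28 elsewhere. In single cells Lyz2 had 2 counts in lungL, 2 in lungH and 6 in lymphH. The macrophage list had 0.306, 0.534 and 0.221 counts per 10000 in that order. The 5 endothelial markers summed to at most 0.21 TPM. In single cells, the fibroblast list had 21.4 counts per 10000 in lungL, 0.267 in lungH and 0.115 in lymphH. The lungL value was mostly Col1a2 (14.4) and Col1a1 (4.35), with Dcn at 0.0991 and Lum at 0. In bulk lung CD44low cells the sum was mostly Dcn, at 4091 and 4315 TPM, with Lum at 362 and 217. The basal list had 47.7, 0.0905 and 0.204 in the same order, and the epithelial list 0.878, 4.27 and 9.18. In lungH that was nearly all Krt18 (2.59, against 1.17 in lymphH) and Krt8 (1.67, against 2.80). Cdh1, Cldn3 and Cldn4 had 0 counts there. These markers differed between the groups of each lung contrast below, and their part in the differences was not tested.

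The clonal isolates of 2 groups also differed from each other more than those of the rest. Between the replicates of BM CD44low and LN CD44low cells, 30.4% and 25.3% of genes differed over 2-fold, against 4.62% to 12.8% in the other 5 groups. Among members, 6 of 38 and 11 of 37 did so. The total count per library is not known for the TPM table, so the counting error of low TPM values cannot be given.

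The redox genes did not move as 1 block, and lung CD44low cells stood apart from the other groups. Together the 42 genes made up 1.57% and 1.62% of all TPM in the 2 lung CD44low libraries and between 0.654% and 1.18% in the other 12. For 17 members both lung CD44low libraries lay above all 12 others, where 16.1% of all genes tested did so. These were Nqo1, Hmox1, Keap1, Txnrd1, Srxn1, Me1, Gpx3, Gpx7, Gpx8, Prdx1, Prdx5, Prdx6, Gstm2, Gstp1, Gstt1, Mgst1 and Sod3, of which Nqo1, Gpx3 and Gpx7 reached 1 TPM in no other group, and 14 remain without them. Taldo1 and Tkt lay below all others, against 9.10% of genes. In lung CD44high cells 11 members lay below all 12 other libraries, against 9.04% of genes: Keap1, Slc7a11, Gsr, Txn1, Txnrd1, Me1, Gpx3, Prdx4, Gsta4, Gsto1 and Mgst3, or 10 without Gpx3. Tkt and Prdx3 were above all others there, against 10.5% of genes. Both MFP libraries were above all 12 others for Nfe2l2, Txn1, Gsto1 and Mgst3, against 11.9% of genes, and below them for Gstm1 and Sod3, against 4.01%. In bulk samples, fewer cells of a type and less RNA per cell cannot be told apart.

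**Figure D1:**
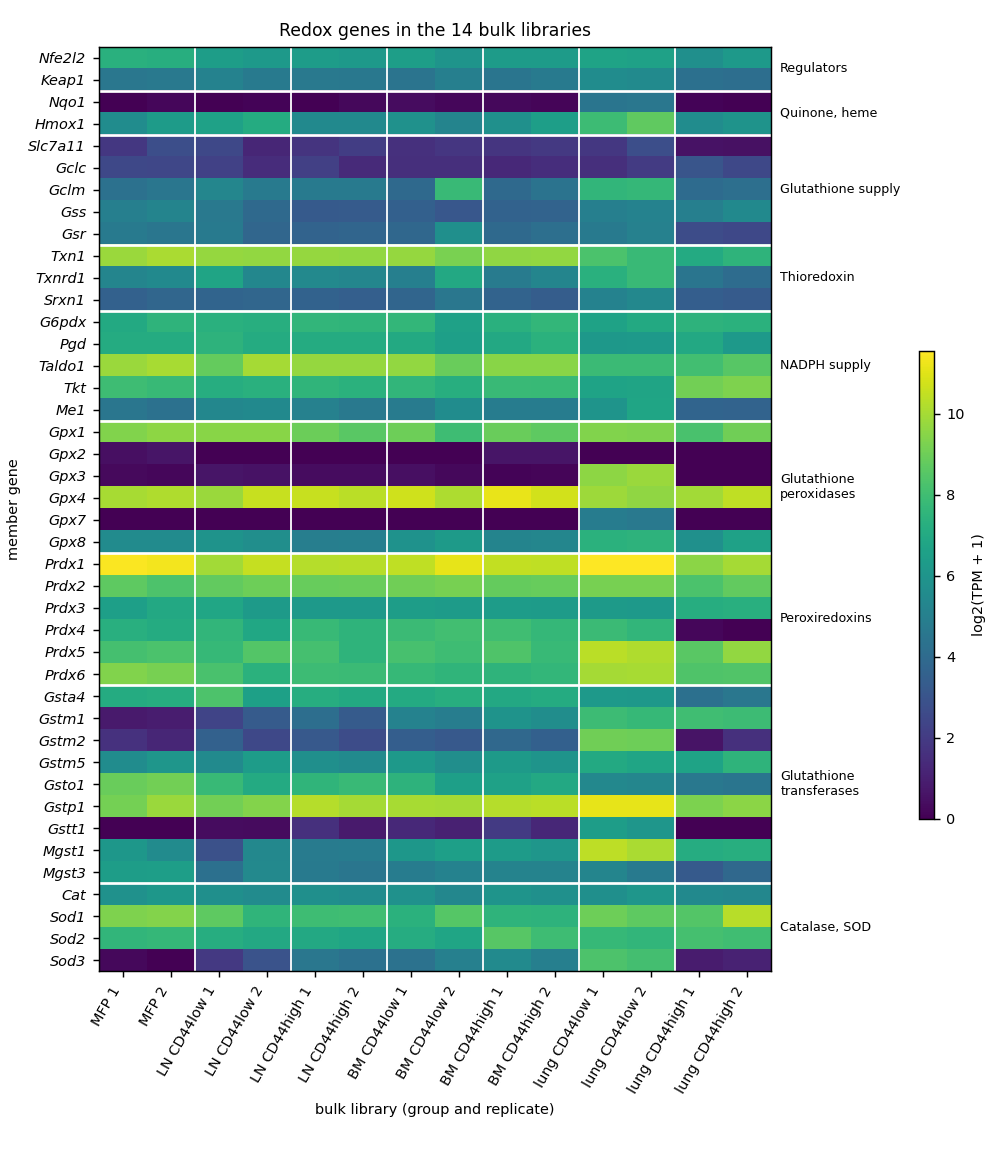
Heat map of log2(TPM + 1) for the 42 members (rows, ordered by role) in the 14 bulk libraries (columns, 2 per group). The 2 lung CD44low columns are bright for Nqo1, Gpx3, Gpx7, Gstm2, Gstt1 and Sod3, which are dark or dim elsewhere, and the 2 lung CD44high columns are dark for Prdx4, which stands between 115 and 260 TPM in the other 12 libraries.

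Differences between groups were taken on the log2(TPM + 1) scale with limma, and a gene counted as higher or lower where its p, adjusted by Benjamini-Hochberg across the 15348 genes tested, was below 0.05. In lung CD44low cells 20 members were higher and 7 lower than in MFP, of 41 tested (45.0% of all genes called, 21.9% higher and 23.1% lower). The median member difference was 0.54, against 0 over all genes. In lung CD44high cells 3 members were higher and 11 lower than in MFP (36.1% of all genes called, 14.9% higher and 21.2% lower), with a median of -0.25 against -0.04. The total, 34.1% of members, was near the share of all genes. Within the lung, 2 members were higher and 24 lower in CD44high than in CD44low cells (30.7% of all genes called, 12.2% higher and 18.5% lower), with a median of -1.37 against -0.01. A difference over 2 in size was also reached by 14 of the 27 members called in lung CD44low cells against MFP (18.8% of all genes), 7 of the 14 in lung CD44high cells against MFP (13.5%) and 14 of the 26 between the lung groups (11.3%). Nqo1, Gpx3 and Gpx7 entered the test through lung CD44low cells alone, the group where they were high, and the medians above include them. Without them the counts were 17 higher and 7 lower, 3 and 11, and 2 and 21, of 38, with 11, 7 and 11 over 2 in size. The calls of 15, 9 and 16 of these 38 members in the 3 comparisons held in each of the 14 fits that left out 1 library. All comparisons with MFP share the same 2 control libraries.

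**Figure D2:**
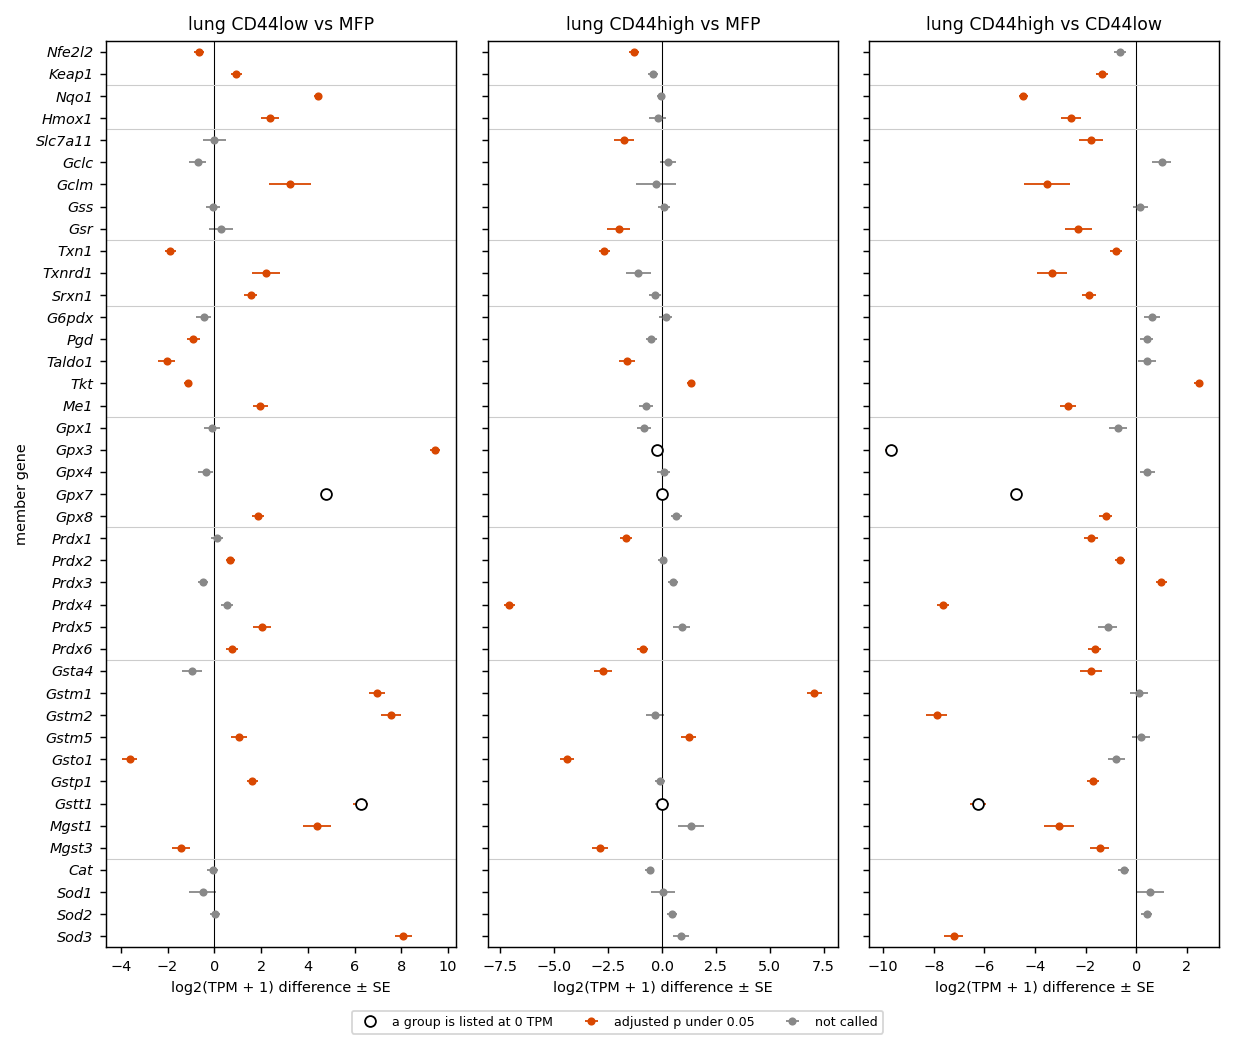
Differences in log2(TPM + 1) with their SE for the 41 members tested, lung CD44low against MFP, lung CD44high against MFP and lung CD44high against lung CD44low. Orange points passed an adjusted p of 0.05, and open circles mark genes listed at 0 TPM in both libraries of a group. Most orange points lie right of 0 in the first panel (20 of 27) and left of 0 in the third (24 of 26).

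Of the regulators, Nfe2l2 was highest in MFP and Keap1 in lung CD44low cells. Nfe2l2 (chr2:75675513-75704641, minus strand, mm10), which encodes NRF2, stood at 161 and 151 TPM in MFP, 101 and 96.8 in lung CD44low cells, 52.5 and 75.9 in lung CD44high cells, and between 62.0 and 88.7 in LN and BM cells. Both MFP libraries were above the other 12. The difference from MFP was -0.65 ± 0.22 (SE; adjusted p = 0.037, limma) in lung CD44low cells and -1.29 ± 0.22 (adjusted p = 0.0015, limma) in lung CD44high cells. The first was not called without either MFP, LN CD44high, BM CD44high or lung CD44low library, with values of -0.60 to -0.70, nor under median-ratio scaling, at -0.52, without the filter on low TPM or with the replicate block. Between the 2 lung groups it was -0.64 ± 0.22 (adjusted p = 0.053, limma), and without lung CD44high replicate 2, BM CD44low replicate 1 or BM CD44low replicate 2 it was called, at -0.91, -0.64 and -0.64, as it was with a filter of 5 TPM. The average of the lung groups differed from that of the LN and BM groups by 0.02 ± 0.14 (adjusted p = 0.91, limma). Median-ratio scaling turned this value to -0.27, and leaving out 1 library gave values on both sides of 0.

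Keap1, which encodes the inhibitor that binds NRF2, was highest in lung CD44low cells at 48.7 and 44.4 TPM and lowest in lung CD44high cells at 17.9 and 16.9 TPM, with 20.5 to 34.1 TPM in the other 10 libraries. The 3 sets did not overlap. Lung CD44low cells were 0.94 ± 0.24 above MFP (adjusted p = 0.0088, limma), a call lost without lung CD44low replicate 1 at 0.88. Lung CD44high cells were 1.37 ± 0.24 below lung CD44low cells on the log2 scale (a difference of -1.37, adjusted p = 0.0018, limma), and their difference from MFP was -0.43 ± 0.24 (adjusted p = 0.20, limma). Lung against LN and BM gave 0.16 ± 0.14 (adjusted p = 0.37, limma), which turned to -0.12 under median-ratio scaling.

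The quinone and heme enzymes were both at their highest in lung CD44low cells. Nqo1 (chr8:107388225-107403206, minus strand), the quinone reductase that is the most used readout of NRF2, was 21.6 and 22.6 TPM in lung CD44low cells and at most 0.31 in the other 12 libraries, with 4 of them at 0. It was 4.43 above MFP, and lung CD44high minus lung CD44low was -4.47. No test is given, since Nqo1 passed the filter on low TPM only through the lung CD44low libraries. Hmox1 (heme oxygenase) was 242 and 428 TPM in lung CD44low cells, 95.9 and 136.6 in LN CD44low cells and 36.0 to 87.9 in the other 10 libraries. Unlike Nqo1, Hmox1 was therefore present throughout, and both lung CD44low libraries were above every other.

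The supply of glutathione divided by enzyme. Gclm, the modifier subunit of glutamate-cysteine ligase, was 194 and 208 TPM in lung CD44low cells and 15.6 and 17.6 in lung CD44high cells. It was 18.6 and 22.3 TPM in MFP and 14.2 to 38.9 in LN and BM cells, except for BM CD44low replicate 2, at 223.6. That library lay above both lung CD44low libraries, and the other isolate of its group was at 14.2. Lung CD44high minus lung CD44low was -3.52 ± 0.91 (adjusted p = 0.016, limma), and the call was lost without any 1 of the 4 lung libraries, with values of -3.44 to -3.61. Gclc, the catalytic subunit that pairs with Gclm, gave no call in the 3 lung contrasts, with 1.90 and 3.02 TPM in lung CD44low, 7.28 and 4.72 in lung CD44high, 4.73 and 4.51 in MFP and 1.49 to 3.76 in LN and BM cells.

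Slc7a11, the cystine importer, was 0.47 and 0.44 TPM in lung CD44high cells and 1.36 to 5.85 in the other 12 libraries, so no other library reached down to it. The difference from MFP was -1.77 ± 0.47 (adjusted p = 0.015, limma), and it was not called without MFP replicate 2 (-1.32), lung CD44high replicate 1 (-1.79) or lung CD44high replicate 2 (-1.76), nor in the fit of only the groups compared. Gsr, the glutathione reductase, was 5.52 and 4.65 TPM in lung CD44high cells and 11.7 to 53.1 elsewhere. It was -2.01 ± 0.53 from MFP (adjusted p = 0.014, limma), a call lost without either MFP or either lung CD44high library, at -1.90 to -2.11. The top of its range was again BM CD44low replicate 2 (53.1 TPM, against 13.3 in the other isolate). Gss, glutathione synthetase, was 30.3 to 43.0 TPM in MFP and all 4 lung libraries, 14.5 and 24.3 in LN CD44low cells and 7.84 to 11.9 in the other LN and BM libraries, and gave no call between the lung groups or between either and MFP.

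**Figure D3:**
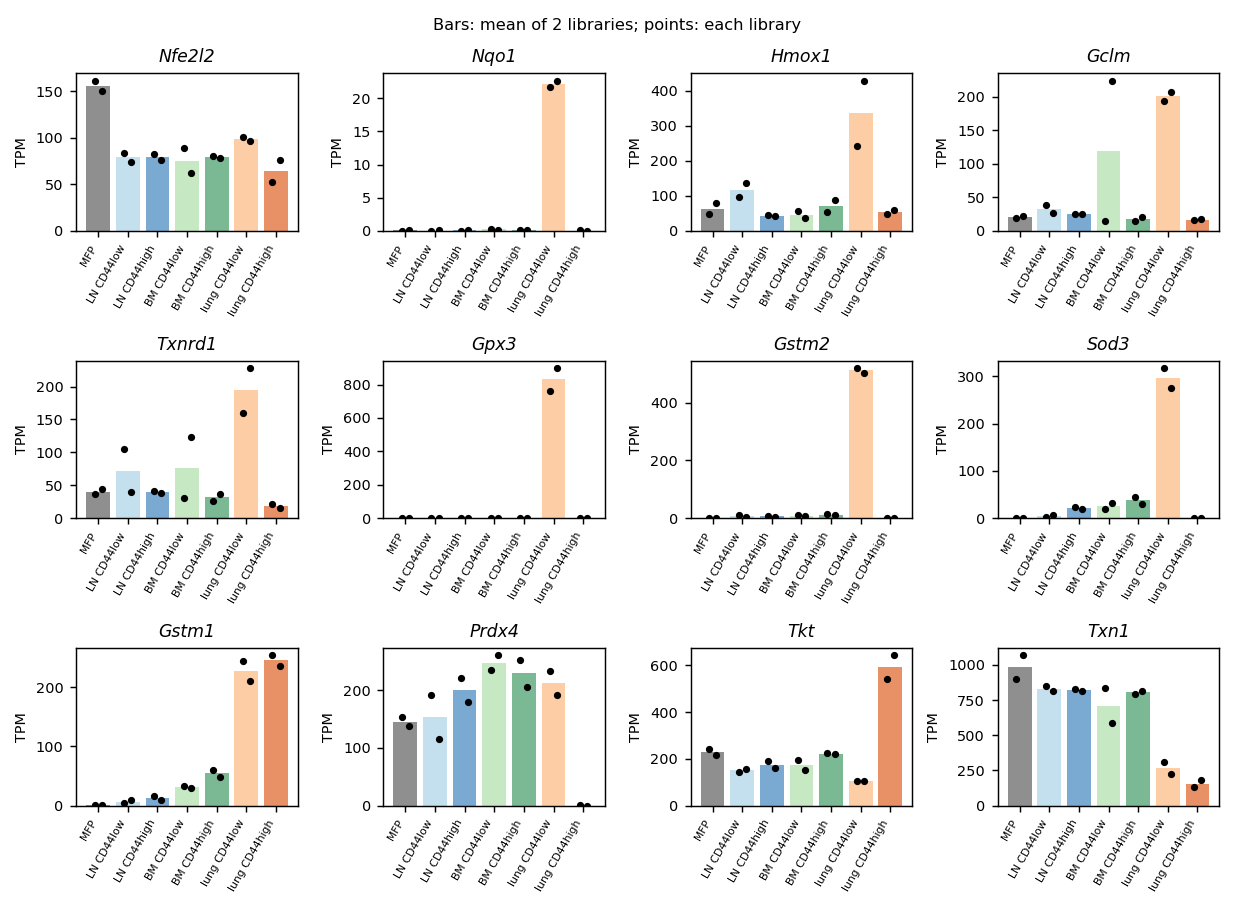
TPM of 12 members in the 7 bulk groups, with bars for the mean of 2 libraries and a point for each library, on linear axes that start at 0. Gclm and Txnrd1 each show 1 high point in BM CD44low cells (223.6 and 123 TPM) beside the high lung CD44low bars, while Gpx3, Gstm2, Sod3 and Nqo1 have high points in lung CD44low cells alone.

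The thioredoxin genes parted from each other as well. Txn1, thioredoxin itself, was 902 and 1068 TPM in MFP, 587 to 851 in LN and BM cells, 312 and 223 in lung CD44low cells and 131 and 178 in lung CD44high cells. The 4 lung libraries all lay below the other 10. The difference from MFP was -2.67 ± 0.24 in lung CD44high cells (adjusted p = 2.4e-05, limma). Txnrd1, the reductase that recharges it, moved in the opposite direction in lung CD44low cells, at 160 and 228 TPM against 37.3 and 43.7 in MFP, and was 21.5 and 15.7 in lung CD44high cells. LN CD44low replicate 1 (105 TPM) and BM CD44low replicate 2 (123 TPM) stood above their partners, at 39.2 and 30.8 TPM. Srxn1 (sulfiredoxin, which repairs overoxidized peroxiredoxins) was 33.6 and 40.3 TPM in lung CD44low cells and 8.89 to 22.8 in the other 12 libraries. Txnrd1 and Srxn1 were both higher in lung CD44low cells than in MFP. The Txnrd1 call was lost without MFP replicate 1 or lung CD44low replicate 2, with values of 2.10 and 1.96.

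Of the 5 genes grouped under NADPH supply, G6pdx and Pgd encode the enzymes of the pentose phosphate pathway that make NADPH, Taldo1 and Tkt act in its non-oxidative branch, and Me1, malic enzyme, makes NADPH outside it. Me1 was 61.4 and 111 TPM in lung CD44low cells, 12 and 11.8 in lung CD44high cells and 18.9 to 47.7 elsewhere, in 3 sets that did not overlap. Tkt (transketolase) had the reverse order, at 540 and 643 TPM in lung CD44high cells, 104 and 105 in lung CD44low cells and 146 to 244 elsewhere. Tkt was 1 of only 2 members higher in lung CD44high than in lung CD44low cells, by 2.48 ± 0.18 (adjusted p = 4.0e-06, limma). The other was Prdx3, by 1.0 ± 0.22 (adjusted p = 0.0065, limma), and both are singled out here after their values were seen. Taldo1 (transaldolase) was 234 and 233 TPM in lung CD44low cells, 264 and 373 in lung CD44high cells and 445 to 1047 elsewhere, so it was low in both lung groups. G6pdx, the entry enzyme, ranged from 95.8 to 201 TPM and gave no call in the 3 lung contrasts, and Pgd ranged from 69.7 to 173 TPM.

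Among the glutathione peroxidases, Gpx1, Gpx4 and Gpx8 were expressed in all 14 libraries, and Gpx3 and Gpx7 were found at more than trace levels in lung CD44low cells alone. Gpx1 (251 to 756 TPM) and Gpx4, the lipid hydroperoxide reductase (792 to 2316 TPM), were not called between either lung group and MFP or between the lung groups. Gpx3 (chr11:54902453-54910377, plus strand), the secreted plasma enzyme, was 764 and 899 TPM in lung CD44low cells, 0 in both lung CD44high libraries and at most 0.56 in the other 10. The difference from MFP was 9.45, given without a test because Gpx3 passed the filter through lung CD44low cells alone, as did Gpx7. Gpx7 (chr4:108400390-108406961, minus strand) was 27.5 and 24.8 TPM in lung CD44low cells and listed at 0 in the other 12 libraries. Gpx8, like Gpx7 an enzyme of the endoplasmic reticulum, was 165 and 174 TPM in lung CD44low cells, 54.2 and 97.8 in lung CD44high cells and 30.0 to 76.5 in the rest. The gene overlaps Cdc20b on the opposite strand, and the libraries are not stated to keep strand.

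The glutathione peroxidases fall in 2 classes by their active site. Gpx1, Gpx3 and Gpx4 carry selenocysteine, encoded by an in-frame TGA codon, and Gpx7 and Gpx8 carry cysteine at the aligned codon. The coding sequences of GENCODE vM21 (mm10) around that codon are shown 5′ to 3′ on the coding strand, with the codon in capitals, because both classes include genes whose levels were highest in lung CD44low cells. The codons lie at chr9:108339451-108339453 in Gpx1, chr11:54907256-54907258 in Gpx3, chr10:80054737-80054739 in Gpx4, chr4:108403430-108403432 in Gpx7 and chr13:113045661-113045663 in Gpx8.
Gpx1: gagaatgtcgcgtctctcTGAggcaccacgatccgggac
Gpx3: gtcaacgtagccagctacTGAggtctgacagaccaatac
Gpx4: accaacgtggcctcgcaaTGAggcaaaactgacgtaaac
Gpx7: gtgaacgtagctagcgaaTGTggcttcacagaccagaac
Gpx8: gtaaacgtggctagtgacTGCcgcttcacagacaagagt
In lung CD44low cells Gpx3, of the selenocysteine class, and Gpx7 and Gpx8, of the cysteine class, lay above all 12 other libraries.

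Prdx4 (chrX:155323918-155340754, minus strand), the peroxiredoxin of the endoplasmic reticulum, was nearly absent from lung CD44high cells. It was 0.14 and 0 TPM there, 232 and 191 in lung CD44low cells and 115 to 260 in the other 10 libraries. The difference was -7.09 ± 0.25 from MFP (adjusted p = 9.2e-08, limma) and -7.63 ± 0.25 from lung CD44low cells (adjusted p = 1.5e-08, limma). The other peroxiredoxins were expressed in all 14 libraries. Prdx1, an abundant cytosolic enzyme, was 2980 and 2893 TPM in lung CD44low cells, 2853 and 2594 in MFP and 738 and 1004 in lung CD44high cells. Prdx5 was 1284 and 1148 TPM in lung CD44low cells, 378 and 815 in lung CD44high cells and 183 to 350 elsewhere. Prdx6 was 998 and 1062 TPM in lung CD44low cells, 661 and 577 in MFP, 325 and 336 in lung CD44high cells and 162 to 301 in LN and BM cells. Prdx2, a cytosolic enzyme, ranged from 313 to 580 TPM. It was called higher in lung CD44low cells than in MFP, and lost without MFP replicate 2 or either lung CD44low library (0.50 to 0.69). It was called lower in lung CD44high than in lung CD44low cells, and lost without any LN CD44high, BM CD44high or lung CD44low library or lung CD44high replicate 1 (-0.42 to -0.66). Prdx3, the mitochondrial enzyme, was 145 and 156 TPM in lung CD44high cells and 71.8 to 123 elsewhere.

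Glutathione transferases, which join glutathione to electrophiles, gave 6 higher and 2 lower of 9 in lung CD44low cells against MFP (88.9% called, against 45.0% of all genes), and 2 higher and 3 lower in lung CD44high cells (55.6%, against 36.1%). Gstm1 and Gstm2 lie near each other on chromosome 3 (chr3:108012255-108017973 and chr3:107981702-107986453, both minus strand) and have similar sequences, so the split of shared reads between them is uncertain. Gstm1 was high in both lung groups, at 243 and 210 TPM in CD44low and 254 and 237 in CD44high cells, and 0.77 and 0.90 in MFP. It lay between them in LN cells at 4.15 to 16.9 TPM and in BM cells at 28.9 to 59.7 TPM. Gstm1 was 6.95 ± 0.35 above MFP in lung CD44low cells (adjusted p = 1.8e-07, limma) and 7.07 ± 0.35 above it in lung CD44high cells (adjusted p = 4.3e-07, limma).

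Gstm2 was high in lung CD44low cells alone, at 520 and 504 TPM, against 0.53 and 2.08 in lung CD44high cells and 1.34 to 14 in the rest. Lung CD44high minus lung CD44low was -7.88 ± 0.42 (adjusted p = 4.4e-07, limma). Gstt1 followed Gstm2, at 86.1 and 66.7 TPM in lung CD44low cells, listed at 0 in MFP and lung CD44high cells and 0.26 to 2.86 in LN and BM cells. Mgst1, the microsomal enzyme, was 1348 and 1084 TPM in lung CD44low cells, 139 and 152 in lung CD44high cells and 6.34 to 89.9 in the rest, and lung CD44low cells were 4.39 ± 0.61 above MFP (adjusted p = 0.00028, limma). Gstp1 was 2225 and 2183 TPM in lung CD44low cells and 534 to 1294 elsewhere, with the near-identical copies Gstp2 and Gstp3 able to share its reads. Gstm5, another gene of the mu class on chromosome 3, was 127 and 109 TPM in lung CD44low cells, 102 and 179 in lung CD44high cells and 45.3 to 81.3 in the rest. Its call was lost without either MFP or either lung CD44low library in lung CD44low cells (0.82 to 1.27) and without MFP replicate 1 or lung CD44high replicate 2 in lung CD44high cells (1.02 and 0.84).

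Gsto1, an omega-class transferase, was lower than in MFP in all 6 other groups. It was 472 and 534 TPM in MFP, 132 to 225 in LN cells, 90.3 to 178 in BM cells, 40.9 and 38.6 in lung CD44low cells and 23.9 and 21.7 in lung CD44high cells. The difference from MFP was -4.40 ± 0.33 in lung CD44high cells (adjusted p = 6.0e-06, limma). The calls in LN cells were lost without MFP replicate 2 or LN CD44low replicate 2 (-1.20 to -1.47) and without either MFP or either LN CD44high library (-1.16 to -1.45), and under median-ratio scaling at -1.24 and -0.76. In the fits of only the groups compared, no call was made for LN CD44low cells (adjusted p = 0.12, limma) or BM CD44low cells (adjusted p = 0.087, limma). Gsta4, which conjugates lipid aldehydes, was 18 and 22.7 TPM in lung CD44high cells, 75.4 and 70.0 in lung CD44low cells and 93.3 to 316 elsewhere, and Mgst3 was 8.57 and 13.8 in lung CD44high cells and 18 to 86.5 elsewhere. Against MFP, lung CD44high cells gave -2.74 ± 0.43 for Gsta4 (adjusted p = 0.00085, limma) and -2.87 ± 0.37 for Mgst3 (adjusted p = 0.00024, limma).

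Catalase and the superoxide dismutases, which remove hydrogen peroxide and superoxide, differed in pattern. Cat ranged from 39.8 to 68.9 TPM and was not called in any of the 12 comparisons. Sod1, the cytosolic dismutase, ranged from 167 to 1264 TPM, and the 2 lung CD44high libraries were far apart (350 and 1264). Sod2, the mitochondrial enzyme, was 373 and 245 TPM in BM CD44high cells, 283 and 259 in lung CD44high cells and 108 to 213 elsewhere. Sod3, the secreted enzyme, was 318 and 276 TPM in lung CD44low cells, 0.85 and 1.18 in lung CD44high cells and 0.20 and 0 in MFP. It was 2.83 and 6.78 TPM in LN CD44low, 22.9 and 18.6 in LN CD44high, 19.5 and 31.2 in BM CD44low and 44.9 and 30.2 in BM CD44high cells. Lung CD44low cells were 8.08 ± 0.37 above MFP (adjusted p = 1.0e-07, limma), and lung CD44high minus lung CD44low was -7.21 ± 0.37 (adjusted p = 3.2e-07, limma).

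Promoters of members were searched for TGACNNNGC, the core of the antioxidant response element, on both strands of the 250 bases before each transcription start listed (RefSeq, GRCm38.p6, the same assembly as mm10). Of 36 members with a promoter in the table, 8 (22.2%) held it, against 11.5% of 27025 genes. These were Nfe2l2, Gclm, Txnrd1, G6pdx, Prdx1, Gstm5, Mgst1 and Sod1. Hmox1, Gclc, Gsr, Prdx6, Gsta4 and Sod3 had no entry. A match is a description of letters, and elements farther from these starts lie outside this window. The stretches of 4 members that were lower in lung CD44high than in lung CD44low cells are printed 5′ to 3′ along the gene, with the match in capitals, at chr3:122245397-122245456 for Gclm, chr10:82859088-82859147 for Txnrd1, chr4:116685440-116685499 for Prdx1 and chr6:138140445-138140504 for Mgst1. In all 4 the match reads GCNNNGTCA, on the opposite strand.
Gclm: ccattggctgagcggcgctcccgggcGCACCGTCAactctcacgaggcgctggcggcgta
Txnrd1: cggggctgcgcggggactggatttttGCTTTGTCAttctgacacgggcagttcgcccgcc
Prdx1: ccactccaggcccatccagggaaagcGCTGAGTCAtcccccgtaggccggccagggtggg
Mgst1: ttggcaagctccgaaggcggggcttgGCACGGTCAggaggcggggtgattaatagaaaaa
The match ends 126 bases before the listed start of Gclm and 125 before that of Prdx1. For Txnrd1 and Mgst1 it lies at 1 of 3 and 1 of 2 listed starts, 84 and 48 bases before it. Both of these starts are alternative ones inside the gene bounds of the GENCODE annotation (chr10:82833951-82897712 and chr6:138140316-138156755). Nqo1, Srxn1, Me1 and Gstm2 had a promoter in the table without these letters.

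In LN and BM cells 8 to 12 members differed from MFP. LN CD44low cells had 3 higher and 5 lower (14% of all genes called, 4.50% higher and 9.51% lower), and LN CD44high cells 4 and 7 (23.8%, 5.87% and 17.9%). BM CD44low cells had 4 and 5 (23.2%, 9.36% and 13.8%), and BM CD44high cells 5 and 7 (27.0%, 8.38% and 18.6%). With a difference over 2 in size required as well, 1, 2, 2 and 4 members remained in that order (4.79%, 6.12%, 7.16% and 7.67% of all genes). Under median-ratio scaling, which moved the median of all genes by 0.19, 0.32, 0.15 and 0.37 in these 4 contrasts, the splits became 4 and 1, 8 and 2, 7 and 3, and 10 and 3. Over all 15348 genes the scaled splits were 844 higher and 901 lower, 1389 and 1199, 1753 and 1306, and 1827 and 1257. The fits of only the groups compared gave 1 member for LN CD44low cells and 5 for BM CD44low cells. The total for LN CD44low cells was 4 and 3 without MFP replicate 1 and MFP replicate 2. That for LN CD44high cells was 5 without MFP replicate 1 and 6 without MFP replicate 2, LN CD44high replicate 1 or LN CD44high replicate 2. That for BM CD44low cells was 15 without BM CD44low replicate 1, and that for BM CD44high cells was 7 without MFP replicate 1 or BM CD44high replicate 1.

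Sod3 and Gstm1 were higher in all 4 LN and BM groups than in MFP, and held in each of the 14 fits without 1 library. The Sod3 difference was 2.32 ± 0.37 in LN CD44low cells (adjusted p = 0.0023, limma), 4.30 ± 0.37 in LN CD44high cells (adjusted p = 4.0e-05, limma), 4.55 ± 0.37 in BM CD44low cells (adjusted p = 2.6e-05, limma) and 5.11 ± 0.37 in BM CD44high cells (adjusted p = 1.1e-05, limma). For Gstm1 it was 1.97 ± 0.35, 2.86 ± 0.35, 4.13 ± 0.35 and 4.91 ± 0.35 in the same order. Prdx6 was lower than MFP in all 4 groups and held likewise, by -1.48 ± 0.25, -1.38 ± 0.25, -1.63 ± 0.25 and -1.71 ± 0.25. The fits of only the groups compared gave no call for Sod3, Gstm1 or Prdx6 in LN CD44low cells.

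Between CD44high and CD44low cells of LN or of BM, no call was made for a member. By limma 0 members passed in LN (0.378% of all genes called, 0.189% in each direction) and 0 in BM (0.150%, 0.0717% higher and 0.0782% lower), where 7 and 3 members had an unadjusted p under 0.05. Without LN CD44low replicate 2, 3 members passed in LN, and without BM CD44low replicate 1, 6 passed in BM. With a difference over 2 in size required as well, 0 members passed in either (0.208% and 0.104% of all genes). Gclm was at 14.2 and 223.6 TPM in BM CD44low cells and at 14.2 and 20.4 in BM CD44high cells, so the BM groups overlapped. The lung contrast differed from those in LN and BM by a test of the difference itself, with 2 members higher and 14 lower against each. Of all genes 19.5% were called against LN (8.93% higher and 10.6% lower) and 15.3% against BM (6.43% and 8.86%), and with a difference over 2 in size it was 11 members against each, where 10.4% and 8.66% of all genes were. Without Nqo1, Gpx3 and Gpx7 it was 2 higher and 11 lower against each, 8 of them over 2 in size.

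Averaged over CD44, lung cells differed from LN and BM cells in 19 members that were higher and 8 that were lower (59.9% of all genes called, 35.9% higher and 24.0% lower). The total, 65.9% of members, was near the share of all genes. Median-ratio scaling moved the median of all genes by -0.21 and gave 14 and 9, where 4583 of the 15348 genes tested were higher and 4652 lower. Before scaling, a difference over 2 in size was reached by 8 of the 27 members called (12.7% of all genes). Without Nqo1, Gpx3 and Gpx7 it was 16 higher and 8 lower of 38, with 5 over 2 in size. The differences were 3.54 ± 0.21 for Gstm1 (adjusted p = 5.2e-07, limma), 3.35 ± 0.37 for Mgst1 (adjusted p = 3.9e-05, limma) and -3.75 ± 0.15 for Prdx4 (adjusted p = 3.9e-08, limma). Prdx4 was at 191 and 232 TPM in lung CD44low and at 0 and 0.14 in lung CD44high cells, and Gpx3 at 764 and 899 against 0 in both, so for both genes the average over the lung groups stands for neither.

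Genes of the same pathways outside the set went several ways in the lung. Of 22 further NRF2 target genes, 9 were higher and 1 lower in lung CD44low cells than in MFP, and 1 was higher and 11 lower in lung CD44high than in lung CD44low cells, with medians of 0.32 and -1.16. That is 45.5% and 54.5% called, against 45.0% and 30.7% of all genes, so the count against MFP was at the share of all genes. Pir and Aox1 passed the filter on low TPM through 1 lung group alone. Without them it was 7 higher and 1 lower, and 1 and 10, of 20 (40% and 55% called), with medians of 0.30 and -1.16. Cbr3, a carbonyl reductase, was 45.1 and 37.4 TPM in lung CD44low cells, 0.24 and 1.04 in lung CD44high cells and 0.11 and 0 in MFP. Pir (pirin) was 30.2 and 29.0 TPM in lung CD44low cells, 0.16 and 0.12 in lung CD44high cells and listed at 0 in the other 10 libraries. Aldh3a1, an aldehyde dehydrogenase, ran against these, at 5.01 and 5.88 TPM in lung CD44low cells, 158 and 229 in lung CD44high cells, 30.8 and 41.4 in MFP and up to 1164 in BM CD44high cells. Lung CD44high minus lung CD44low was -4.73 ± 0.39 for Cbr3 (adjusted p = 1.0e-05, limma) and 4.90 ± 0.45 for Aldh3a1 (adjusted p = 2.3e-05, limma).

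Of 25 further glutathione genes tested, 12 were higher and 5 lower in lung CD44low cells than in MFP, and 2 were higher and 12 lower in lung CD44high than in lung CD44low cells, with medians of 0.74 and -1.10 (68.0% and 56.0% called, against 45.0% and 30.7% of all genes). Gstm6, Gstk1, Ggt1 and Ggt5 passed the filter through lung CD44low cells alone. Without them it was 8 higher and 5 lower, and 2 and 8, of 21 (61.9% and 47.6% called), with medians of 0.48 and -0.78. Glrx (glutaredoxin) was 536 and 518 TPM in lung CD44low cells, 488 and 391 in lung CD44high cells, 43.3 and 40.6 in MFP and 55.7 to 182 in LN and BM cells. Gsta1, an alpha-class transferase, was 63.8 and 94.4 TPM in MFP, 0.10 and 0 in lung CD44low cells and 0 in lung CD44high cells. Of 16 further thioredoxin genes, 6 were higher and 1 lower in lung CD44low cells than in MFP (43.8% called, against 45.0% of all genes), among them Msrb3, a methionine sulfoxide reductase, at 86.2 and 116 TPM against 4.02 and 3.10. Of 12 further genes that regulate NRF2, 2 were higher and 3 lower (41.7%, against 45.0%), and Maff, a small MAF partner of NRF2, was 12.7 and 17.5 TPM in lung CD44low cells, 0.79 and 1.31 in lung CD44high cells and 2.42 and 1.03 in MFP.

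The single-cell libraries gave 1 value per group, with no replicate check. Cells with more than 250 genes and under 10% mitochondrial counts numbered 1236 of 3623 barcodes in lungH, 348 of 2808 in lungL and 2562 of 3297 in lymphH, and held 2210623, 2220759 and 5287425 counts. Median counts per cell were 557, 4011 and 585. Cells are named by running number in these tables, so barcodes shared between libraries could not be counted. Values are summed counts per 10000 with exact Poisson 95% intervals, which cover counting error only. Members with at least 20 counts in 1 of 2 libraries were compared, and a difference over 2-fold was noted.

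Between lungH and lungL, 8 members were over 2-fold higher and 8 lower of 40 compared (28.4% of all genes were past 2-fold, 14.4% higher and 14% lower). With all barcodes it was 5 and 8, and with the mean of cells 5 and 10. Nqo1, Gpx3, Gpx7, Prdx4 and Sod3 had under 20 counts in lungH and so were compared through lungL, where they were high. With 20 counts required in both libraries, it was 8 and 3 of 35 (18.7% of all genes past 2-fold, 10.0% higher and 8.63% lower). Nqo1 had 1.03 counts per 10000 in lungL (0.902 to 1.17), 1 count in all of lungH (0.00452 per 10000, 0.000115 to 0.0252) and none in lymphH. Gpx3 had 1.73 in lungL (1.56 to 1.91) and 0 counts in lungH, which puts lungL at least 127-fold higher when 0 is taken as 3 counts. Sod3 had 1.5 in lungL (1.34 to 1.67), 0.0136 in lungH (0.0028 to 0.0397) and 0.390 in lymphH (0.338 to 0.447). Prdx4 had 0.779 in lungL (0.667 to 0.904), 0.437 in lymphH (0.382 to 0.497) and 0 of 2210623 counts in lungH, which puts lungL at least 57.4-fold and lymphH at least 32.2-fold higher. Gpx7 had 0.216 in lungL (0.159 to 0.287) and 0 counts in both other libraries.

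**Figure D4:**
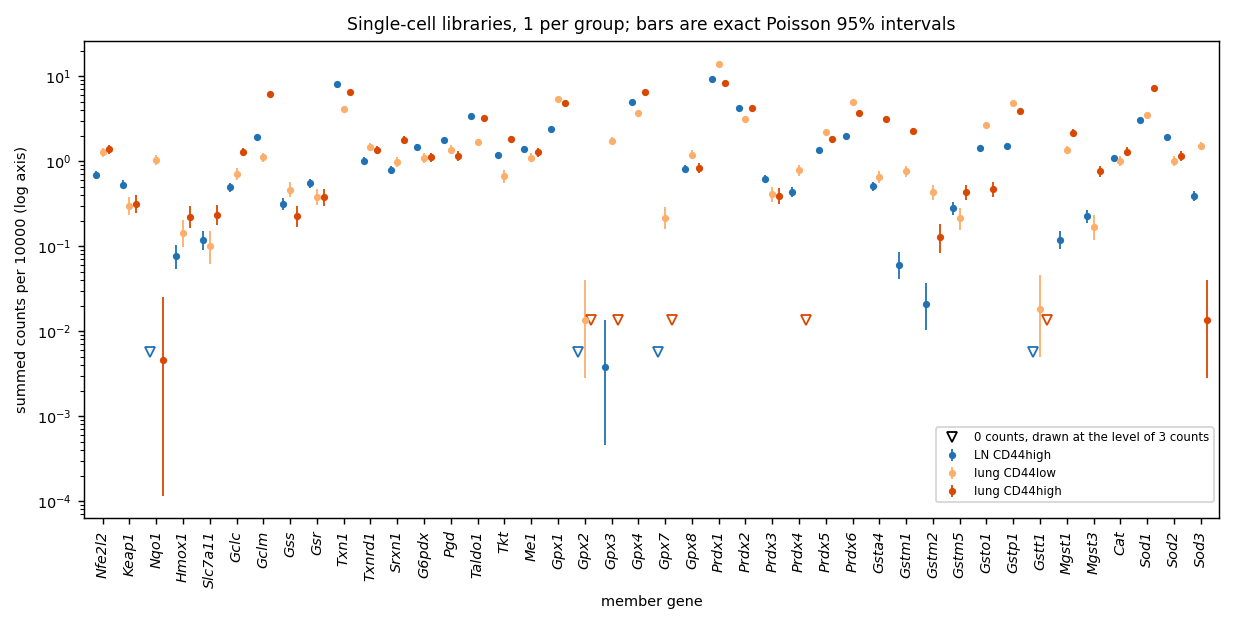
Summed counts per 10000 of the 42 members in lymphH (blue), lungL (light orange) and lungH (dark orange), on a log axis, with exact Poisson 95% intervals and open triangles at the level of 3 counts where a library had 0. Triangles of lungH stand at Gpx3, Gpx7, Prdx4, Gpx2 and Gstt1, and Gclm is highest in lungH at 6.20.

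Several members did not keep the order of the bulk libraries. Gclm had 6.20 counts per 10000 in lungH (5.88 to 6.54), 1.11 in lungL (0.974 to 1.26) and 1.93 in lymphH (1.81 to 2.05), so lungH was 5.6-fold above lungL. Gsta4 had 3.11 in lungH (2.88 to 3.35) and 0.648 in lungL (0.547 to 0.763), and Mgst3 had 0.755 (0.645 to 0.879) and 0.167 (0.117 to 0.230). Slc7a11 was 2.37-fold higher in lungH than in lungL. All 4 were lower in lung CD44high than in lung CD44low cells in bulk, and each of those calls was lost without 1 or more of the 4 lung libraries, at -3.44 to -3.61 for Gclm, -1.63 to -1.85 for Gsta4, -1.12 to -1.19 for Mgst3 and -1.32 to -1.79 for Slc7a11. Of 23 members called lower in that bulk contrast and compared in single cells, 6 were over 2-fold lower, 13 were within 2-fold and 4 were over 2-fold higher. No share over all genes is given beside these counts, so they are not read as particular to the members. Without Nqo1, Gpx3 and Gpx7, 3 of 20 were over 2-fold lower, namely Prdx4, Gstm2 and Sod3. Prdx4 and Sod3 had under 20 counts in lungH and were compared through lungL, where they were high, which leaves Gstm2. The 13 divided into 7 higher and 6 lower in lungH, with intervals that lay apart for 4 in each direction. Srxn1 had 1.79 (1.61 to 1.97) in lungH and 0.977 (0.851 to 1.12) in lungL, and Mgst1 had 2.16 (1.97 to 2.37) and 1.36 (1.21 to 1.52). Both were thus higher in lungH, although their bulk calls in the opposite direction held in each of the 14 fits. Hmox1, whose bulk call held likewise, had 0.222 (0.164 to 0.293) and 0.144 (0.0986 to 0.203), intervals that overlapped. Tkt was higher in lungH at 1.80 (1.63 to 1.99) than in lungL at 0.662 (0.559 to 0.778), the same direction as in bulk. Nfe2l2 and Keap1 were within 2-fold, at 1.38 and 1.27 for Nfe2l2 and 0.317 and 0.297 for Keap1. The bulk and single-cell cultures are not stated to be the same isolates.

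**Figure D5:**
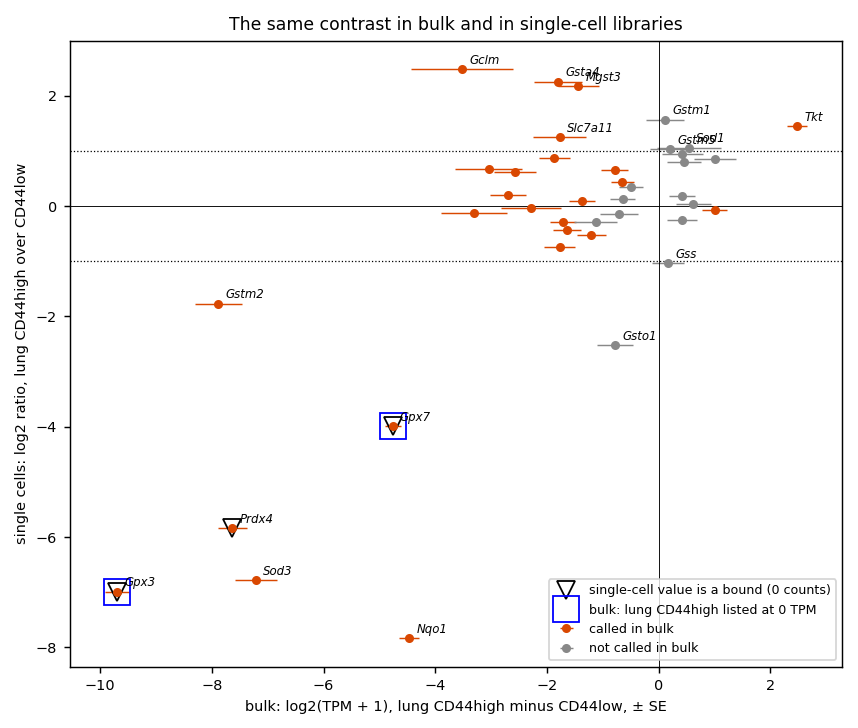
The 40 members compared in both kinds of library, with the bulk difference of lung CD44high minus lung CD44low (log2(TPM + 1), with SE) on the x axis and the single-cell log2 ratio of lungH to lungL on the y axis, dotted lines marking 2-fold. Nqo1, Gpx3, Gpx7, Prdx4, Gstm2 and Sod3 lie at the lower left, Tkt at the upper right, and Gclm, Gsta4, Mgst3 and Slc7a11 at the upper left.

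Against lymphH, lungH had 12 members over 2-fold higher and 3 lower of 37 compared (29.1% of all genes, 14.6% and 14.5%), and lungL 10 and 1 of 40 (31.5%, 16.0% and 15.5%). With the mean of cells it was 13 and 5, and 14 and 0. With 20 counts required in both libraries it was 11 and 1 of 34 (20.6% of all genes), and 6 and 1 of 36 (21.6%). Gstm1 was 37.2-fold and Mgst1 18.1-fold higher in lungH than in lymphH, and 12.6-fold and 11.4-fold higher in lungL. Gstm1 had 2.25 counts per 10000 in lungH (2.06 to 2.46), 0.761 in lungL (0.651 to 0.885) and 0.0605 in lymphH (0.0414 to 0.0854). The 3 members lower in lungH than in lymphH were Prdx4, Sod3 and Gsto1, the last at 0.466 (0.380 to 0.565) against 1.42 (1.32 to 1.53). Gsto1 was highest in lungL at 2.67 (2.46 to 2.89), while in bulk it was lower in lung CD44low (40.9 and 38.6 TPM) than in LN CD44high cells (184 and 225 TPM). Prdx1 was within 2-fold in all 3 pairs, at 8.36 in lungH, 14 in lungL and 9.34 in lymphH, and 179 of its 3109 lungL counts came from 1 cell. Gpx2 and Gstt1 had 0 counts in lungH and lymphH, and in lungL Gpx2 had 3 counts, all from 1 cell, and Gstt1 had 4.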

How the data were processed

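Per the labels and the study's methods, the authors amplified bulk cDNA by SMART-seq2, mapped reads to mm10 with STAR, quantified them with RSEM and deposited TPM values, with no reads per library. The authors quantified the ddSeq 3' libraries with kallisto and deposited whole-number counts per gene and barcode, and removal of duplicate reads is not stated.

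TPM was taken as log2(TPM + 1), for genes with at least 1 TPM in 2 of 14 libraries, and fitted as 7 group means (7 residual degrees of freedom) in limma 3.58.1 (R 4.3.3), with the prior variance following mean expression. On simulated data with 200 of 15348 genes shifted by 2 on the log2 scale, the fit recovered 57% (lung CD44low against MFP) to 90.5% (lung against LN and BM). The shifted genes were drawn from the more highly expressed ones, and each gene had the same spread in all groups. These shares therefore do not cover genes at low TPM or groups of unequal spread. Python 3.11.15 summed counts, no doublet caller was run, and the exact intervals have a level of 95%. The members, lists and comparisons were chosen with earlier results of these data known. Sizes with SE and adjusted p were limited to the 8 called members with the largest difference per comparison, and not all of these are printed. They are also given for Nfe2l2 and Keap1 in lung contrasts, and for Tkt and Prdx3 between the lung groups. For other pathway genes, at most 3 per list are named.

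Alternatives were a pseudocount of 0.1, no filter or 5 TPM, median-ratio scaling, the replicate block, only the groups compared, a log2 fold over 2, each library left out, and for cells over 500 genes, 20% mitochondrial counts, all barcodes and the mean of cells.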

Additional observations from a re-analysis of the deposited data

Results flagged for a closer look

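An interaction contrast set the CD44high minus CD44low difference in lung against that in LN, and another against that in BM. In limma, with a Benjamini-Hochberg adjusted p under 0.05, 16 members passed each. Values are the lung difference minus that of the other organ on the log2(TPM + 1) scale. Those of Gpx3, Gpx7 and Gstt1 include a group listed at 0 TPM and are differences on that scale, not folds. Nqo1, Gpx3 and Gpx7 passed the filter on low TPM only through lung CD44low cells, so their calls are no support, and 13 members passed each contrast without them.

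Genes of peroxide and superoxide removal gave the following values against LN and against BM. They were -9.46 and -9.47 for Gpx3, -4.76 and -4.76 for Gpx7, -8.05 and -7.51 for Prdx4, and -9.20 and -7.77 for Sod3. Prdx1 gave -1.83 and -1.45, Prdx6 -1.73 and -1.56, and Prdx3 1.35 and 1.03. The Prdx1 and Prdx3 calls against BM held in 4 of the 14 fits that left out 1 library. Where they were lost the values were -1.12 to -1.47 for Prdx1, without any library but both LN CD44low, BM CD44low replicate 2 and lung CD44high replicate 2. For Prdx3 they were 0.98 to 1.09, without any LN CD44high, BM or lung library. The Prdx6 call against BM was lost without BM CD44high replicate 2 or lung CD44low replicate 2, at -1.48 and -1.51.

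The transferases gave -7.77 and -8.28 for Gstm2, -2.61 and -1.99 for Gstp1, -7.14 and -6.68 for Gstt1, and -3.75 and -2.94 for Mgst1. The Mgst1 call against BM held only without either LN CD44low library and was lost in the 12 other fits, at -2.74 to -3.13. The call against LN was lost without lung CD44low replicate 1, at -3.59.

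Among the regulators, quinone, thioredoxin and NADPH genes, the values were -1.09 and -1.29 for Keap1, -4.55 and -4.37 for Nqo1, 2.27 and 2.11 for Tkt, and -2.14 and -2.32 for Me1. Hmox1 passed against BM (-3.18) and Srxn1 against LN (-1.66). The Keap1 call against LN held only without LN CD44low replicate 1 or either BM CD44low library, and was -0.88 to -1.15 in the 11 other fits. It was also lost with the replicate block (adjusted p = 0.069, limma) and with no filter on low TPM (adjusted p = 0.057, limma). The Keap1 call against BM was lost without either BM CD44high library or any of the 4 lung libraries, at -1.16 to -1.41, and in the fit of only the groups compared (adjusted p = 0.064, limma). The Srxn1 call was lost without LN CD44high replicate 1 or lung CD44low replicate 2, at -1.61 and -1.53. Tkt and Prdx3 were the 2 members that passed with values above 0. With the replicate block, 2 higher and 13 lower members passed against LN, and 1 and 13 against BM.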

How the results depend on the processing

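Median-ratio scaling moved the median of all genes by 0.02 (lung CD44low) and 0.04 (lung CD44high) against MFP, and by 0.01 within lung. It gave 5 members for LN CD44low against MFP (8 before), and turned lung against LN and BM to -0.27 for Nfe2l2 and -0.12 for Keap1. The Nfe2l2 value there also turned to -0.0025, -0.04 and -0.11 without LN CD44low replicate 2, BM CD44low replicate 2 and lung CD44high replicate 2, with 0.15 the highest without 1 library (lung CD44high replicate 1), and none of these values was called. Fits of only the groups compared gave 1 member for LN CD44low and 5 for BM CD44low against MFP. With a log2 fold over 2 required as well, the counts against MFP were 1, 2, 2, 4, 14 and 7 in the order LN CD44low, LN CD44high, BM CD44low, BM CD44high, lung CD44low and lung CD44high, with 14 for CD44 in lung and 8 for lung against LN and BM. No filter on low TPM gave 1 member for CD44 in BM (0 before). The cause of these changes was not tested. Leaving out 1 library gave 3 to 10, 5 to 13, 6 to 15, 7 to 15, 19 to 30 and 11 to 17 members against MFP in the same order, 0 to 3, 0 to 6 and 20 to 29 for CD44 in LN, BM and lung, 22 to 29 for lung against LN and BM, and 14 to 20 and 11 to 19 for the interactions against LN and BM. A group left with 1 library was assumed to vary like the others. The replicate number did not pair the libraries (deviations of replicate 1 correlated between groups at -0.19 to 0.17), and the replicate block gave 8, 11, 11, 12, 26 and 14 members against MFP and 26 for CD44 in lung. Of the named values under all alternatives, 2965 kept direction and call, 165 lost the call, 5 gained it and 5 turned. Requiring 20 counts in both single-cell libraries, a choice made after seeing the data, gave 7 members past 2-fold between lungL and lymphH (11 before). No other single-cell total moved by over 1.5 times, but the 8 members higher in lungH than in lungL became 5 with all barcodes or the mean of cells, and the 3 lower in lungH than in lymphH became 5 with the mean of cells. TPM carries no depth, so levels under about 1 TPM are uncertain.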

Other observations

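Genes near Prdx4 on the X chromosome differed in their level in lung CD44high cells. Sat1 and Acot9, the nearest genes on 1 side, reached 275 and 50.1 TPM in lung CD44high cells and at most 385 and 108 TPM in the other 12 libraries. On the other side the nearest genes, Ptchd1, Gm15155 and Phex, were at most 0.06 TPM in lung CD44high cells and at most 0.43 in any library, and farther out Sms reached 27.8 and Mbtps2 21.5 TPM in lung CD44high cells, against at most 52.4 and 26 elsewhere. Magea5, Magea8 and Yy2, among the 10 nearest coding genes on each side, were 0 in all 4 lung libraries. Magea5 and Magea8 were also 0 in both MFP libraries and reached 30.0 and 17.7 TPM in LN cells, and Yy2 reached 1.63 TPM in MFP. The near absence of Prdx4 counts was seen in both bulk isolates and in the single-cell library of the same label.

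BM CD44low replicate 2 had the highest level of all 14 libraries of Gclm (223.6 TPM) and Gsr (53.1 TPM), and the highest outside the lung CD44low libraries of Txnrd1 (123 TPM), Srxn1 (22.8 TPM) and Me1 (47.7 TPM). Nqo1 was 0.15, Gpx3 0.17 and Hmox1 36.0 TPM there. Whether the isolates differ in other ways that bear on these genes was not tested.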
